A study of Mus musculus with 2 samples.

Results

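The 10 genes described here encode the ATPases and core or signature subunits of the mammalian SWI/SNF chromatin remodelling complexes, and were chosen by symbol: Smarca4, Smarca2, Smarcc1, Smarcc2, Smarce1, Arid1a, Arid1b, Arid2, Pbrm1 and Brd9. They are 10 of the 54658 gene symbols in the count matrices of 2 spatially barcoded sections of mouse intestine, and all 10 had counts in both sections. One section is labelled as coming from Dpf2 knockout (KO) mice and the other from wild-type (WT) mice, both after 10 Gy of X-ray irradiation, and the study asked about DPF2 in radiation injury of the intestine. Tissue was fresh frozen, embedded in OCT and cut at 10 µm. With 1 section per genotype, no spread between animals could be estimated, so no test was made and no difference can be assigned to the genotype. Not given in the sources used here are the interval between irradiation and sampling, the gut segment, the deleted part of Dpf2 and the cells that lost it.

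SWI/SNF complexes use the energy of ATP to move or evict nucleosomes. A complex holds 1 ATPase, either SMARCA4 (BRG1) or its paralog SMARCA2 (BRM). In BAF and PBAF, SMARCC1 and SMARCC2 form a scaffold that also carries SMARCE1, a subunit with a DNA-binding HMG domain. Canonical BAF carries ARID1A or ARID1B, which exclude each other, whereas PBAF carries ARID2 and PBRM1, a protein with a row of bromodomains. BRD9 marks a further form, non-canonical BAF, which lacks SMARCE1 and SMARCC2, and is therefore not a subunit of BAF or PBAF in the strict sense. DPF2 is a histone-reading subunit of canonical BAF. In mice, loss of Smarca4 from the intestinal epithelium is known to deplete its stem cells.

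The KO-labelled section held 88056 barcodes and 89754886 counts, against 50970 barcodes and 39824941 counts in the WT-labelled section, and the 10 genes together had 34416 counts in the KO-labelled section and 18524 in the WT-labelled one. Levels are given in CPM (counts per 1000000 counts of the section or region concerned). Intervals are exact (Newcombe's for a difference between shares), at 95%, and cover counting error only. Dpf2 had 2333 counts in the KO-labelled section (26.0 CPM) and 940 in the WT-labelled section (23.6 CPM), a log2 ratio of 0.14 (0.03 to 0.25). Over whole sections, the gene named in the label was thus not lower in the section carrying it. In squares richest in pan-epithelial markers, Dpf2 had 22.4 CPM in the KO-labelled section and 29.2 CPM in the WT-labelled one. Its log2 ratio there was -0.38 (-0.72 to -0.04), the lowest of 17 kinds of marker-rich squares. Of these ratios, 12 were positive and 5 negative, and the highest was 0.74 in Paneth-rich squares. Reads outside the deleted part would not show the deletion, and directions below are between sections as labelled. Markers of intestinal epithelium were present in both sections, at 5994 CPM summed over 7 genes in the KO-labelled section and 4861 CPM in the WT-labelled one. The makeup of the sections differed: enterocyte markers in their richest squares summed to 53544 CPM in the KO-labelled section and 2288 CPM in the WT-labelled one, and Paneth cell markers to 19315 and 185205 CPM in the KO-labelled and WT-labelled sections. The part of these differences in the results below was not tested, and in sums of this kind fewer cells of a type and less RNA per cell cannot be told apart.

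Within the pairs of paralogs, the 2 sections held different mixtures of counts. Smarca4 made up 74.5% of the counts of the ATPase pair in the KO-labelled section (73.3 to 75.7%), against 84.9% in the WT-labelled section (83.6 to 86.2%), which is 10.4 percentage points lower (difference -10.4, interval -12.1 to -8.64). The scaffold pair differed further. Smarcc1 held 33.5% of the Smarcc1 and Smarcc2 counts in the KO-labelled section (32.5 to 34.5%) and 56.2% in the WT-labelled section (54.7 to 57.7%), a difference of -22.7 points (-24.5 to -20.9), so Smarcc2 had the larger number of counts in the KO-labelled section and Smarcc1 in the WT-labelled one. Arid1a, the more often mutated of the BAF ARID subunits in human cancers, held 75.7% of its pair with Arid1b in the KO-labelled section (74.7 to 76.8%) and 73.2% in the WT-labelled section (71.3 to 75.1%), 2.51 points apart (0.42 to 4.65). A share does not depend on the scaling of the sections, but its level can depend on the capture and transcript lengths of both genes. The counts were not corrected for these.

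The promoters of the ATPase and scaffold pairs, whose mixtures differed between the sections, are shown as 250-base RefSeq promoter windows on GRCm38.p6. The Smarcc1 window ends just before the gene start given below. Those of Smarca4, Smarca2 and Smarcc2 end past it, so their last bases lie within the gene as listed there. Capitals mark every match to a GC box (GGGCGG on either strand).
Smarca4, chr9:21615919-21616168, + strand: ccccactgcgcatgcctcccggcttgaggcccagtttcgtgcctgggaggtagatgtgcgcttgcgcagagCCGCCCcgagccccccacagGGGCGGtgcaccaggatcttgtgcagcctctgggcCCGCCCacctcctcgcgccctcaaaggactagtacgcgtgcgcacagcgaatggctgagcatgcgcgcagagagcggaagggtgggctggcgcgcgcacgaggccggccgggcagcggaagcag
Smarca2, chr19:26604910-26605159, + strand: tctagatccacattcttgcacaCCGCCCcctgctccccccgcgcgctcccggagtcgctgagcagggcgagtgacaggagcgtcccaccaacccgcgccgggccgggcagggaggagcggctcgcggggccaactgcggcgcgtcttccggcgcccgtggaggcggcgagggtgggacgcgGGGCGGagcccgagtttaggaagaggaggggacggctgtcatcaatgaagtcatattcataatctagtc
Smarcc1, chr9:110131774-110132023, + strand: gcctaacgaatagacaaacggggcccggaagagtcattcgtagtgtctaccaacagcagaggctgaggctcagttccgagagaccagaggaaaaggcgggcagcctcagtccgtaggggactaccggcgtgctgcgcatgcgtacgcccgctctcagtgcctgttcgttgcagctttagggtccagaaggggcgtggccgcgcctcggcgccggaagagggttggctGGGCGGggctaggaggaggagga
Smarcc2, chr10:128458986-128459235, + strand: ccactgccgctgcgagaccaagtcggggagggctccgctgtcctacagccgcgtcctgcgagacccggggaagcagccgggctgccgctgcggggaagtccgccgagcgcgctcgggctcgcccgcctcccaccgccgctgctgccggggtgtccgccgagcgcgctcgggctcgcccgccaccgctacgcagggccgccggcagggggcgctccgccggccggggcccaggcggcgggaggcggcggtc
The windows of Smarca4, Smarca2 and Smarcc1 held 3, 2 and 1 GC boxes, and that of Smarcc2 held 0. A GC box occurs in 32.7% of all 32851 RefSeq promoter windows of this length. CCAAT (33.8% of windows), TATAAA (12.4%) and the E2F-type letters TTTNNCGC (4.28%) were also searched on both strands, and none of the 4 windows held a match. The Smarcc2 window had 40 CG dinucleotides, more than 98.7% of all windows. Those of Smarca4, Smarca2 and Smarcc1 had 25, 28 and 21, against a median of 6. These matches describe letters in a window and are not binding sites.

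The direction of the ATPase and scaffold shares was the same across the tissue. Each section was split at its median positions into 4 parts of near-equal barcode number. Smarca4 held 71.3 to 76.7% of its pair in the parts of the KO-labelled section and 82.8 to 87.1% in those of the WT-labelled section. Smarcc1 held 32.6 to 35.9% of its pair in the KO-labelled parts and 52.2 to 57.7% in the WT-labelled parts. The parts of the 2 sections overlapped for neither share. Sections were also divided into squares with a side of 20 position units, of a length not given, and for each of 17 marker lists the 10% of squares richest in its genes were taken, which left 210 of 2099 squares in the KO-labelled section and 129 of 1292 in the WT-labelled one. The Smarca4 share was lower in the KO-labelled section in 17 of 17 such compartments, with counting intervals apart in 12, and the difference lay between -17.8 points in endothelium-rich squares and -5.17 points in stem cell-rich squares. The Smarcc1 share was lower in 17 of 17, with intervals apart in all 17. Its difference lay between -32.9 points in enterocyte-rich squares and -10.6 points in enteric neuron-rich squares. For Arid1a the share was higher in the KO-labelled section in 13 compartments and lower in 4, and the intervals were apart in 1, the smooth muscle-rich squares, where it was 75.03% in the KO-labelled section and 64.2% in the WT-labelled one. Compartments are regions and overlap one another. The rule takes 10% of squares whatever their marker level, so some compartments were poor in their own markers in 1 section. Neutrophil markers summed to 38.1 CPM in neutrophil-rich squares of the KO-labelled section and 1655 CPM in those of the WT-labelled one. B cell markers likewise summed to 67.9 and 1041 CPM, and T cell markers to 172 and 61.2 CPM. The 17 compartments are therefore not 17 like tissues. In the KO-labelled section, 55.2% of the smooth muscle-rich squares were also stroma-rich, against 36.4% in the WT-labelled section.

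**Figure D1:**
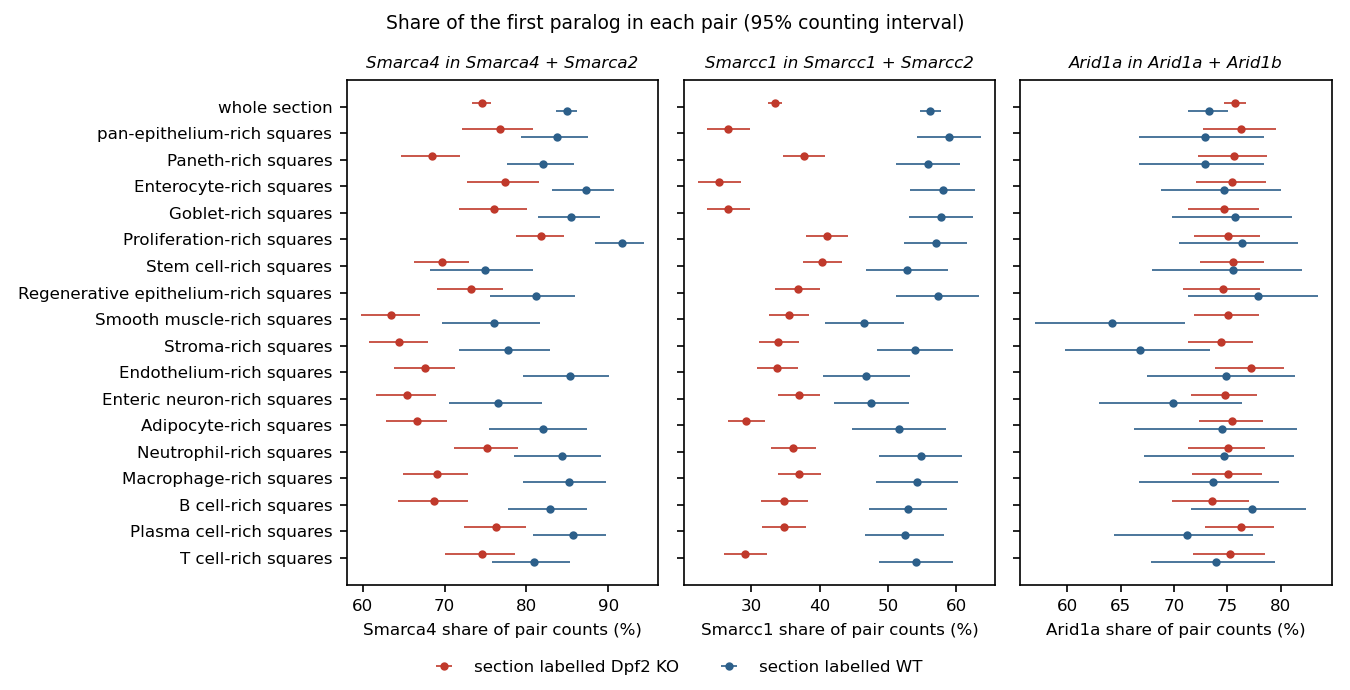
Share of the first gene in each paralog pair (percent of the counts of the pair, horizontal axis) in the whole section and in the squares richest in each marker list (vertical axis), for the section labelled Dpf2 KO (red) and that labelled WT (blue), with exact 95% counting intervals. The red points lie left of the blue points in every row of the Smarca4 and Smarcc1 panels, whereas the intervals of the Arid1a panel overlap in every row but the smooth muscle-rich squares.

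Within each section the mixtures also moved with the tissue. The Smarca4 share was highest in proliferation-rich squares in both sections, at 81.7% in the KO-labelled section and 91.7% in the WT-labelled one. It was lowest at 63.4% in smooth muscle-rich squares of the KO-labelled section, and at 74.9% (68.3 to 80.7%) in stem cell-rich squares of the WT-labelled section. Of those WT-labelled stem cell-rich squares, 45% were also smooth muscle-rich. The Smarca4 share of the WT-labelled smooth muscle-rich squares, 76.1%, lay within that interval. The Smarcc1 share ran between 25.2% in enterocyte-rich squares and 41.0% in proliferation-rich squares of the KO-labelled section, against 46.5% in smooth muscle-rich squares and 59.0% in pan-epithelium-rich squares of the WT-labelled section.

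Over whole sections, the levels behind the ATPase share moved in opposite directions. Smarca4 (chromosome 9, 21616106 to 21704230) had 3761 counts and 41.9 CPM in the KO-labelled section, against 2605 counts and 65.4 CPM in the WT-labelled section, a log2 ratio of -0.64 (-0.71 to -0.57). Its parts gave 42.7, 41.2, 45.3 and 39.2 CPM in the KO-labelled section and 59.1, 68.3, 64.6 and 68.9 CPM in the WT-labelled section, so every part labelled KO lay below every part labelled WT. Smarca2 (chromosome 19, 26605073 to 26778321) had 1287 counts and 14.3 CPM in the KO-labelled section and 463 counts and 11.6 CPM in the WT-labelled section, a log2 ratio of 0.30 (0.15 to 0.46). Its parts gave 13.0, 16.6, 15.1 and 13.0 CPM in the KO-labelled section and 11.2, 10.1, 13.4 and 12.2 CPM in the WT-labelled section, and these overlapped.

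The scaffold pair showed the same arrangement with less overlap. Smarcc1 (chromosome 9, 110132024 to 110240178) had 2920 counts and 32.5 CPM in the KO-labelled section, against 2327 counts and 58.4 CPM in the WT-labelled section, a log2 ratio of -0.84 (-0.92 to -0.77). Its parts gave 32.4, 33.4, 34.6 and 30.3 CPM in the KO-labelled section and 59.5, 59.4, 53.1 and 60.6 CPM in the WT-labelled section. Smarcc2 (chromosome 10, 128459182 to 128490591) had 5801 counts and 64.6 CPM in the KO-labelled section and 1814 counts and 45.5 CPM in the WT-labelled section, a log2 ratio of 0.50 (0.43 to 0.58). Its parts gave 65.8, 68.7, 61.7 and 62.7 CPM in the KO-labelled section and 44.2, 45.6, 48.5 and 44.5 CPM in the WT-labelled section. For both scaffold genes the parts of the sections did not overlap, with Smarcc1 lower and Smarcc2 higher in the section labelled KO.

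Smarce1, the HMG-domain subunit (chromosome 11, 99209047 to 99231017), had the lowest ratio of the 10 genes. It had 5932 counts and 66.1 CPM in the KO-labelled section, against 4852 counts and 122 CPM in the WT-labelled section, a log2 ratio of -0.88 (-0.94 to -0.83). Its parts gave 70.7, 65.3, 66.0 and 63.2 CPM in the KO-labelled section and 121.1, 117.6, 120.8 and 128.0 CPM in the WT-labelled section. Over tiles with a side of 100 position units, Smarce1 had a lowest, median and highest level of 32.6, 65.6 and 99.8 CPM in 92 KO-labelled tiles and 47.7, 120.5 and 184.4 CPM in 65 WT-labelled tiles. The tiles therefore overlapped where the 4 parts did not. The pseudogene Smarce1-ps1, which could take reads of Smarce1, had 66 counts in the KO-labelled section and 52 in the WT-labelled one.

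The BAF-defining ARID subunits were both higher in the section labelled KO. Arid1a (chromosome 4, 133679008 to 133756769) had 4977 counts and 55.5 CPM in the KO-labelled section and 1628 counts and 40.9 CPM in the WT-labelled section, a log2 ratio of 0.44 (0.36 to 0.52). Its parts gave 52.8, 56.9, 53.7 and 57.6 CPM in the KO-labelled section and 41.1, 37.3, 36.02 and 48.4 CPM in the WT-labelled section. Arid1b (chromosome 17, 4994297 to 5347656) had 17.8 CPM in the KO-labelled section and 14.9 CPM in the WT-labelled section, a log2 ratio of 0.25 (0.11 to 0.39). Parts of the sections did not overlap for either gene, although for Arid1b the lowest KO-labelled part was at 16.7 CPM and the highest WT-labelled part at 16.4 CPM.

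PBAF-defining subunits were both lower. Arid2 (chromosome 15, 96287522 to 96405463) had 3913 counts and 43.6 CPM in the KO-labelled section, against 2151 counts and 54.0 CPM in the WT-labelled section, a log2 ratio of -0.31 (-0.39 to -0.23). Pbrm1 (chromosome 14, 31019138 to 31121592) had 2246 counts and 25.02 CPM in the KO-labelled section, against 1193 counts and 29.96 CPM in the WT-labelled section, a log2 ratio of -0.26 (-0.36 to -0.16). Pbrm1 overlaps the protein-coding gene Smim4, which had 771 counts in the KO-labelled section and 694 in the WT-labelled one, and no source used here says whether counting used the strand. Brd9 (chromosome 13, 73937801 to 73960895), of the non-canonical complex, had 22.1 CPM in the KO-labelled section and 22.5 CPM in the WT-labelled section, with a log2 ratio of -0.02 (-0.14 to 0.09). With another scaling of the sections, the trimmed mean of M-values (TMM), the ratios of Arid2, Pbrm1 and Brd9 turned to 0.03, 0.08 and 0.31.

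**Figure D2:**
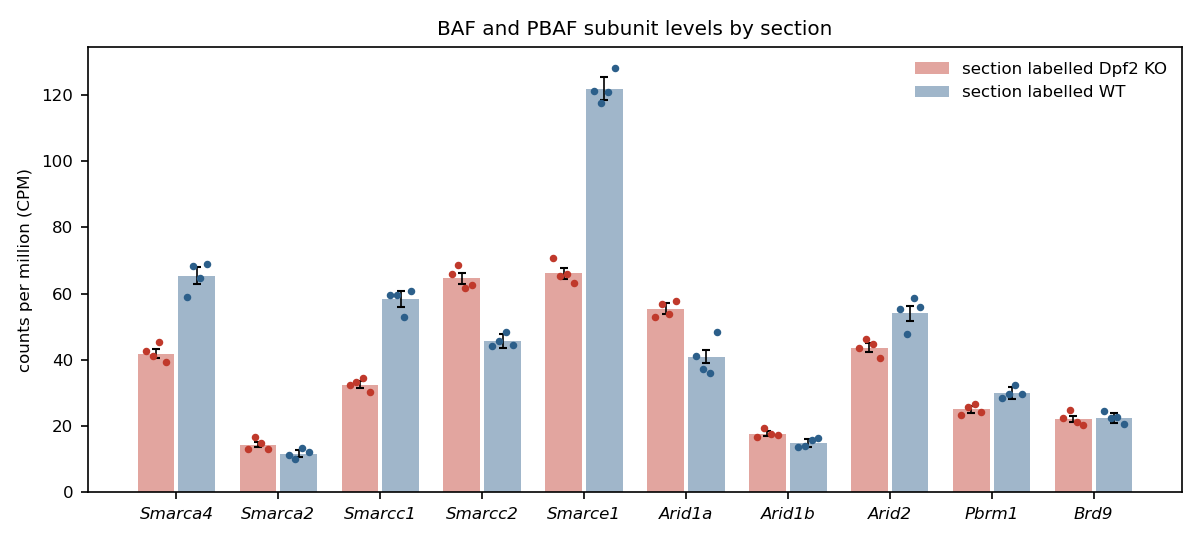
Level of each of the 10 genes (vertical axis, CPM) in the section labelled Dpf2 KO (red, left of each pair) and that labelled WT (blue). Bars are whole sections with exact 95% counting intervals, and points are the 4 parts of each section; for 8 of the 10 genes the red and blue points do not overlap, the exceptions being Smarca2 and Brd9.

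Against all genes these ratios were small. Smarca4, Smarcc1 and Smarce1 (3 of the 10) were lower in the KO-labelled section by 1.5-fold or more and 0 were higher by as much. The background, over the 14516 genes with at least 200 counts, was 33.6% lower and 24% higher by that fold. None was past 2-fold, which 35.4% of all genes were in either direction. The median absolute log2 ratio was 0.37 for the 10 genes and 0.71 for all genes, and the median ratio was -0.14 and -0.18. Parts of the sections did not overlap for 8 of the 10 genes and for 74.3% of all genes. The counts are thus near or below the background of these libraries. With TMM scaling, 0 of the 10 passed 1.5-fold downwards and 3 upwards (Smarca2, Smarcc2 and Arid1a), beside 21.9% of all genes downwards and 33.7% upwards. Smarca4, Smarcc1 and Smarce1 were then at log2 ratios of -0.31, -0.51 and -0.55. Another setting moved the ratios the other way. It left the genes of the Paneth, enterocyte, plasma cell and neutrophil lists and the alpha-defensins out of the totals. On these totals Smarca4, Smarcc1 and Smarce1 were at -0.83, -1.04 and -1.07, so Smarcc1 and Smarce1 passed 2-fold downwards. The share of all genes past 2-fold was not taken for whole sections on these totals.

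Ratios between the sections depended on the compartment. Over the 170 combinations of gene and compartment, 28 (against 30.5% of all genes over the same squares) passed 1.5-fold upwards in the KO-labelled section and 35 (against 23.2%) downwards. Smarce1 passed it downwards in 12 of 17 compartments, Smarca4 and Smarcc1 in 7 each, Arid2 in 6 and Pbrm1 in 3, and none of these genes upwards in any. Smarca2 passed it upwards in 8, Smarcc2 in 7, Arid1a in 6, Arid1b in 4 and Brd9 in 3, and none of these downwards. In enterocyte-rich squares Smarcc1 had 18.4 CPM in the KO-labelled section and 60.5 CPM in the WT-labelled section, a log2 ratio of -1.72 (-1.99 to -1.44), the lowest of the 170. Smarce1 there had 44.8 CPM in the KO-labelled section and 123.9 CPM in the WT-labelled section (log2 -1.47), and Smarca4 had 27.5 and 68.9 CPM in the KO-labelled and WT-labelled sections (log2 -1.32). In those squares 5 of the 10 genes (Arid2 and Pbrm1 being the other ones) passed 1.5-fold downwards, beside 37.6% of all genes. These squares are not alike, however, since their enterocyte markers summed to 53544 CPM in the KO-labelled section and 2288 CPM in the WT-labelled one.

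Goblet-rich squares were closest in the summed level of their own markers, at 10637 CPM in the KO-labelled section and 10539 CPM in the WT-labelled one. They were not alike otherwise, since 0% of them were also Paneth-rich in the KO-labelled section and 46.5% in the WT-labelled one. There Smarcc1 had 21.5 CPM in the KO-labelled section and 47.0 CPM in the WT-labelled section (log2 -1.13), and Smarcc2 had 59.3 and 34.4 CPM in the KO-labelled and WT-labelled sections (log2 0.79). Smarca4 was at 32.5 CPM in the KO-labelled squares and 57.3 CPM in the WT-labelled ones (log2 -0.82). Smarca4, Smarcc1 and Smarce1 (3 of the 10) passed 1.5-fold downwards in these squares, as 27.1% of all genes did, and Smarcc2, Arid1a and Arid1b upwards, as 38.1% of all genes did. These 3 upward calls ended when the genes of the Paneth, enterocyte, plasma cell and neutrophil lists and the alpha-defensins were left out of the totals, an alternative added for the squares after the data were seen. Smarcc2, Arid1a and Arid1b were then at 0.39, 0.21 and 0.29, and Smarcc1 at -1.53. Arid2 (-0.77) and Pbrm1 (-0.66) then passed 1.5-fold downwards as well. Over the 17 compartments together, 24.6% of all genes passed upwards and 28.6% downwards on these totals.

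In smooth muscle-rich squares the subunits with the lowest whole-section ratios were close between the sections. Smarca4 had 48.6 CPM in the KO-labelled section and 46.1 CPM in the WT-labelled section, with a log2 ratio of 0.08 (-0.19 to 0.35), and Smarce1 had 73.3 CPM in the KO-labelled section and 74.6 CPM in the WT-labelled section, at -0.03 (-0.23 to 0.19). Without those genes in the totals they were at -0.20 and -0.30. Smarca2 had 28.1 CPM on 262 counts in the KO-labelled squares and 14.5 CPM on 50 counts in the WT-labelled ones, at 0.95 (0.51 to 1.42). The squares were not muscle alone. Paneth cell markers in them summed to 11434 CPM in the KO-labelled section and 112389 CPM in the WT-labelled one, and enterocyte markers to 15220 and 114 CPM. Smooth muscle markers in these squares summed to 5234 CPM in the KO-labelled section and 1927 CPM in the WT-labelled one. When squares of both sections had to pass the same marker level, the Smarca2 ratio was -0.0016, so the higher level was not seen there. That threshold kept only part of these WT-labelled squares. The value therefore rests on at most their 50 Smarca2 counts and is given without an interval, so it cannot decide whether the difference was removed.

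With all genes in the totals, Paneth-rich squares gave the highest ratios, with Arid1a at 64.0 CPM in the KO-labelled section and 28.5 CPM in the WT-labelled section (log2 1.17), Smarca2 at 1.16 and Smarcc2 at 1.12. Genes at least 1.5-fold higher made up 48.8% of all genes there, and the marker genes themselves summed to 185205 CPM in the WT-labelled Paneth-rich squares. Without the genes named above in the totals, Arid1a, Smarca2 and Smarcc2 were at 0.65, 0.64 and 0.60 there, and the highest ratios were those of Smarca2 in proliferation-rich (0.93) and endothelium-rich (0.89) squares. Of the 170 combinations, 14 then passed 1.5-fold upwards and 47 downwards, beside 24.6% of all genes upwards and 28.6% downwards. On these totals Smarca4, Smarcc1, Smarce1 and Arid2 had negative ratios in 17 of 17 compartments, and Smarcc2 a positive one in 17 of 17. Smarca2 had negative ratios in 6 and passed 1.5-fold downwards in pan-epithelium-rich squares (-0.59).

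**Figure D3:**
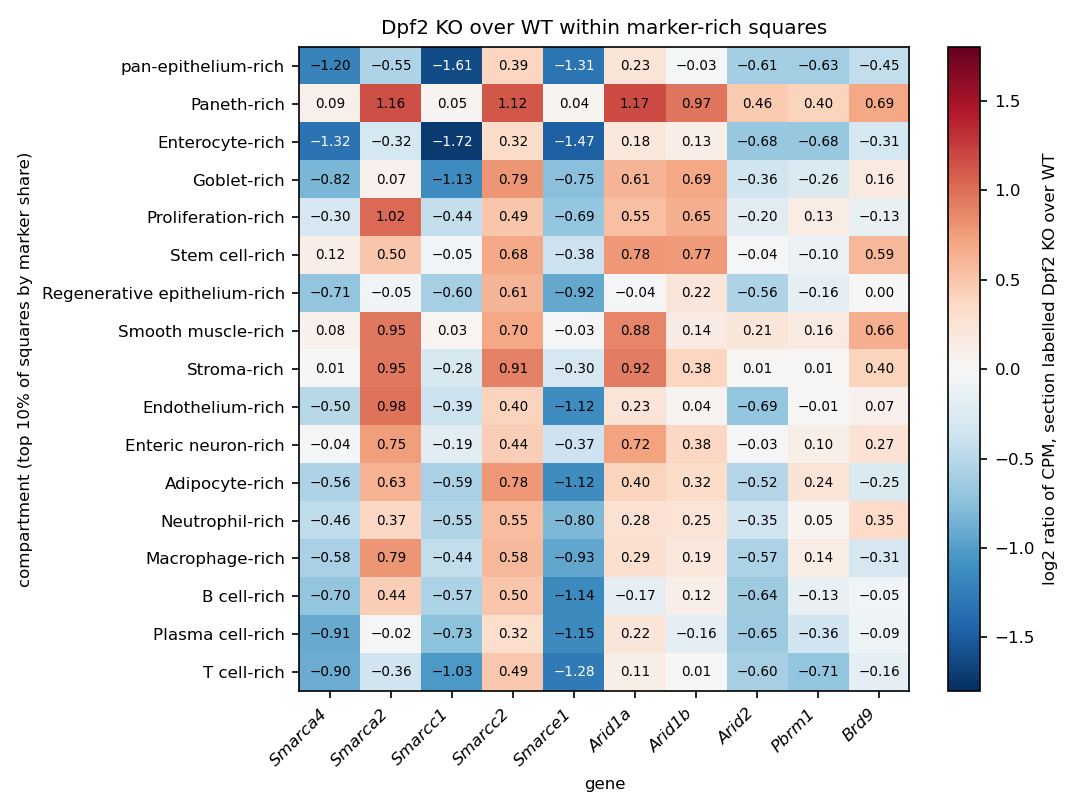
Log2 ratio of CPM, section labelled Dpf2 KO over section labelled WT, for each gene (columns) in the squares richest in each marker list (rows). Blue cells (lower in the section labelled KO) gather in the Smarca4, Smarcc1 and Smarce1 columns, deepest in the enterocyte-rich row, and fill most of the Arid2 column. Red cells gather in the Smarca2, Smarcc2, Arid1a and Arid1b columns, although Smarca2 is negative in 5 rows. The highest value is in the Paneth-rich row when all genes are in the totals.

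Within a section, Smarca4 and Smarcc1 had their highest level in proliferation-rich squares in both sections. Smarce1 had its highest there in the KO-labelled section and in endothelium-rich squares in the WT-labelled one. In the KO-labelled section Smarca4 had 67.4 CPM in proliferation-rich squares and 39.3 CPM in the others (log2 0.78), and Smarcc1 and Smarce1 were at 0.72 and 0.52 on the same scale. Genes at least 1.5-fold higher in these squares made up 20.5% of all genes of that section. In the WT-labelled section the ratios of Smarca4, Smarcc1 and Smarce1 were 0.37, 0.25 and 0.31, below 1.5-fold, which 6.32% of all genes reached. Smarca2 was at 0.08 in the KO-labelled section and at -0.70 (-1.30 to -0.16, 29 counts) in the WT-labelled section.

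Smarca2 and Pbrm1 were higher in the smooth muscle-rich squares of the KO-labelled section than in its other squares. Smarca2 had 28.1 CPM in its smooth muscle-rich squares and 12.7 CPM in its other squares (log2 1.15, 0.94 to 1.34), and Pbrm1 was at 0.81. Smarca2 was almost as high in stroma-rich (1.04) and enteric neuron-rich (1.02) squares. Genes at least 1.5-fold higher in these squares made up 21.3% of all genes there. In the WT-labelled section Smarca2 was at 0.35 (-0.10 to 0.78) and Pbrm1 at 0.32. Smarca4, Smarcc1 and Smarce1 were at 0.24, 0.40 and 0.17 in the KO-labelled section and at -0.55, -0.56 and -0.76 in the WT-labelled section, where Smarce1 was at least 1.5-fold lower along with 21% of all genes.

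**Figure D4:**
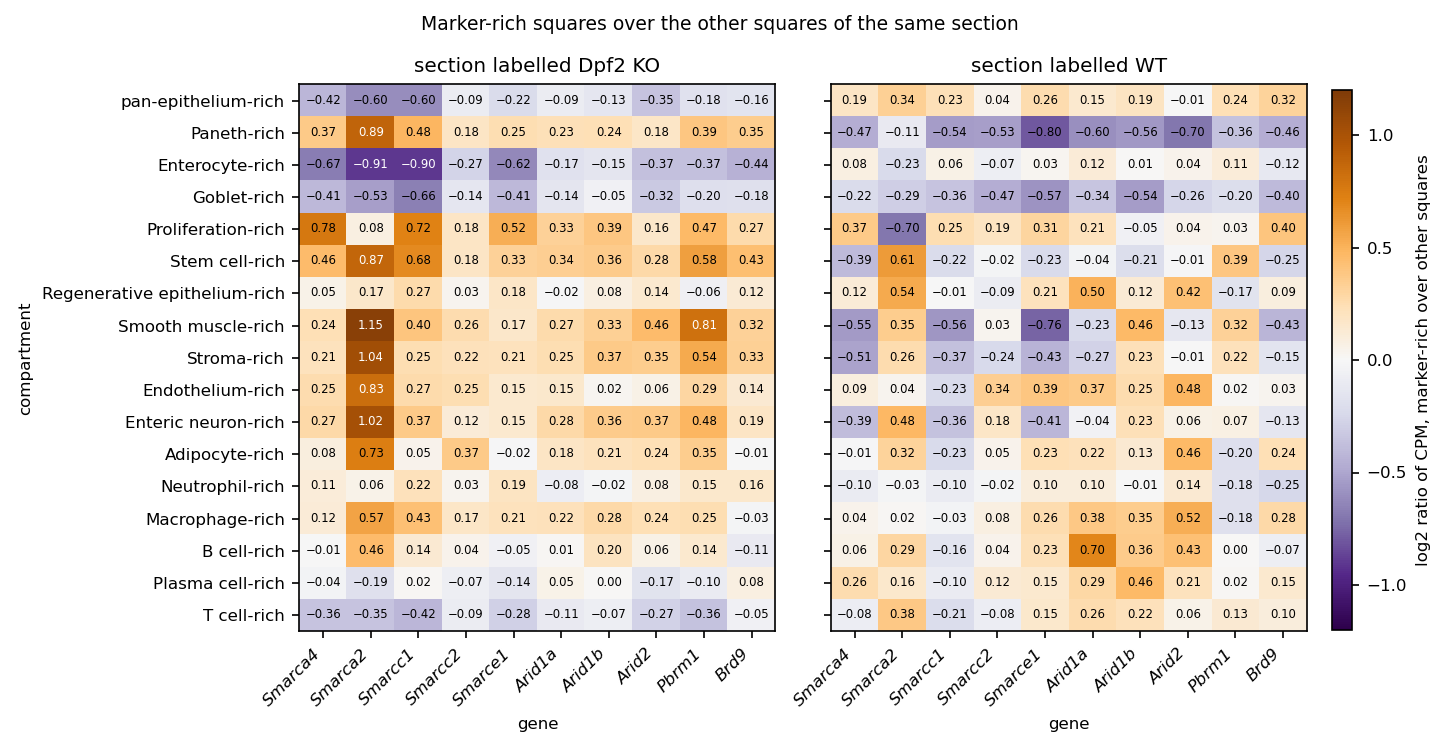
Log2 ratio of CPM in the squares richest in a marker list (rows) over the other squares of the same section, for each gene (columns), in the section labelled Dpf2 KO (left) and that labelled WT (right). In the left panel the enterocyte-rich row is negative for all 10 genes and Smarca2 is highest in the smooth muscle-rich row (1.15), and in the right panel Arid1a is positive in B cell-rich squares (0.70).

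All 10 genes had their lowest level of the KO-labelled section in enterocyte-rich squares. There Smarca2 was at a log2 ratio of -0.91 to the other squares, Smarcc1 at -0.90, Smarca4 at -0.67 and Smarce1 at -0.62, beside 40.9% of all genes at least 1.5-fold lower. In the WT-labelled section, whose enterocyte markers were low, the same genes were at -0.23, 0.06, 0.08 and 0.03. Lowest levels of the WT-labelled section fell in Paneth-rich squares for Smarcc2, Arid1a, Arid1b, Arid2, Pbrm1 and Brd9, in smooth muscle-rich squares for Smarca4, Smarcc1 and Smarce1, and in proliferation-rich squares for Smarca2. When the 17 compartments of a section were put in order of level, at most 1 of the 16 pairs of neighbours had intervals apart for any gene.

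Arid1a had a local maximum in the WT-labelled section. In B cell-rich squares it had 63.2 CPM and in the others 39.0 CPM (log2 0.70, 0.47 to 0.92), and 8.71% of all genes were at least 1.5-fold higher in these squares. The Arid1a ratio was 0.01 in the KO-labelled section. B cell markers in these squares summed to 67.9 CPM in the KO-labelled section and 1041 CPM in the WT-labelled one. A single WT-labelled tile reached 144.7 CPM for Arid1a (101.9 to 199.4, 37 counts), where the median tile was at 38.3 CPM and the next highest at 80.0 CPM. That tile ranked 1 of 65 for B cell markers, at 5189 CPM, and for macrophage markers, and 65 of 65 for pan-epithelial, Paneth cell, enterocyte, goblet and proliferation markers. In the KO-labelled section the tile highest for Smarca2, at 57.4 CPM on 20 counts against a median of 13.9 CPM, ranked 1 of 92 for smooth muscle, stroma, stem cell and Paneth cell markers alike, and was also the highest for Smarca4, at 80.4 CPM.

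Levels were also set out by distance from the smooth muscle-rich squares, which were not muscle alone and differed in their other markers between the sections. In the KO-labelled section Smarca2 had 28.1 CPM in the smooth muscle-rich squares, 17.8 CPM in squares up to 20 units away and 10.7 to 12.4 CPM in the 5 bands beyond. In the WT-labelled section Smarca2 had 14.5 CPM in the smooth muscle-rich squares and 9.69 to 12.4 CPM in all other bands, with overlapping intervals. Smarce1 had 73.3 CPM in the smooth muscle-rich squares of the KO-labelled section, 79.6 CPM within 20 units and 56.4 to 66.7 CPM beyond, against 74.6, 108.4 and 123.3 to 138.4 CPM in the same places of the WT-labelled section.

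**Figure D5:**
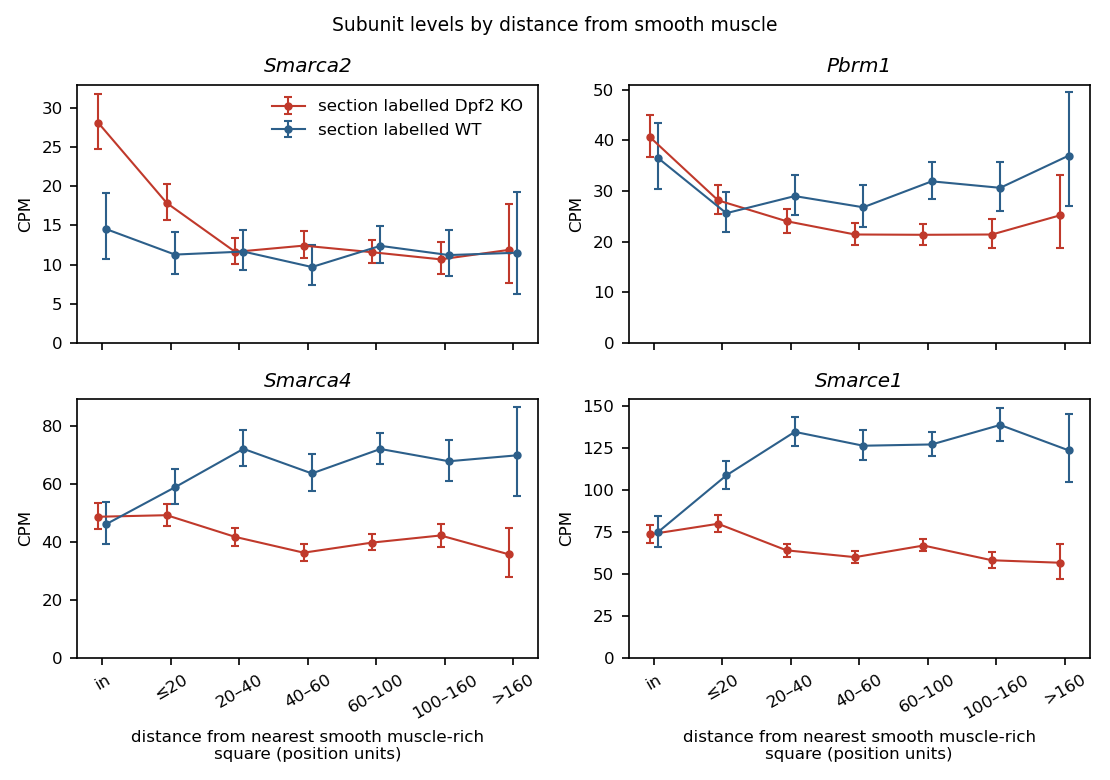
Level (vertical axis, CPM) of Smarca2, Pbrm1, Smarca4 and Smarce1 by distance of a square from the nearest smooth muscle-rich square (horizontal axis, position units), for the section labelled Dpf2 KO (red) and that labelled WT (blue), with exact 95% counting intervals. The red Smarca2 points lie at 28.1 CPM in the smooth muscle-rich squares and at 11.6 CPM in the band of 20 to 40 units, and the red and blue Smarce1 points meet only in the smooth muscle-rich squares.

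Across the 17 compartments of a section, Smarca4 and Smarcc1 had a Pearson r of 0.96 in the KO-labelled section and 0.86 in the WT-labelled section, and Smarca4 and Smarce1 had 0.96 and 0.87 in the KO-labelled and WT-labelled sections. The ATPases Smarca4 and Smarca2 had 0.75 in the KO-labelled section and -0.36 in the WT-labelled one. These points share a library and overlapping squares and are given as a description. Over all 34 values of both sections, the genes most like Smarca4 among 11091 were the nucleoporin gene Nup205 and the spindle gene Tacc3 (r of 0.98 each), and those most like Smarcc1 were the replicative helicase gene Mcm6 and the splicing factor gene U2af1 (0.98 each). Smarce1 was most like Btf3 and the proteasome gene Psmb3 (0.98 each). Smarca2 was most like Marveld1 and the smooth muscle gene Smtn (0.93 each). Differences between the sections enter such pooled values. Smarca4 and Smarcc2, for example, had 0.80 in the KO-labelled section and 0.47 in the WT-labelled one, but -0.36 over both.

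Among 18 other subunits of the complexes, 2 passed 1.5-fold upwards in the KO-labelled section and 2 downwards, and the median log2 ratio was 0.16. The background among genes with 50 or more counts was 23.4% higher and 35.9% lower. Dpf3, a paralog of Dpf2 known from heart and skeletal muscle, had a log2 ratio of 1.35 on 384 counts in the KO-labelled section and 67 in the WT-labelled one, and Ss18l1, the neuronal paralog of Ss18, had 1.11 on 837 and 172 counts in the KO-labelled and WT-labelled sections. Actl6a, an actin-like subunit, was at -0.71, and its neuronal paralog Actl6b at -0.84 on 64 counts in the KO-labelled section and 51 in the WT-labelled one.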

How the data were processed

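Whole-number counts per gene and barcode were used as the authors deposited them. Barcode positions, in a unit not given, were also as deposited. Per the labels' protocols, spots under tissue were extracted with BSTMatrix and BSTViewer, and GRCm38 is the genome build in the submitters' processing notes. Which aligner and counter were used, and whether molecular identifiers were collapsed, is not stated there or in the labels.

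Counts were summed over barcodes (94 of 54752 features repeated a symbol and were added to the first) and scaled to CPM. CPM carry exact Poisson intervals, ratios conditional binomial, shares Clopper-Pearson and differences between shares Newcombe intervals, at 95%. A count of 0 would allow up to 3 counts, which is 0.0334 CPM in the KO-labelled section and 0.0753 CPM in the WT-labelled section. Squares needed 10 barcodes and 5000 counts, tiles 200 barcodes. Of the barcode names, 45557 occur in both sections, at the same array position. No count model was run, because each genotype has 1 section. All 10 genes and Dpf2 are named, with other subunits past 1.5-fold on 50 counts, up to 4 other remodeller and Polycomb genes each with the largest ratios on 200 counts, and, per gene, the 2 genes with the highest r of log2(CPM + 1) on 500 counts. Of those likeness genes, 4 of the 10 genes' are given with the results and the others in the closing section. Genes, lists and compartments were chosen with earlier results of these data known. Alternatives were another scaling, other square sizes and thresholds, and filters on barcodes. Promoters were taken from RefSeq for GRCm38.p6, where 8 of the 10 genes matched (not Smarce1 and Arid2). Scripts used Python 3.11.15, numpy 2.4.6, scipy 1.17.1, pandas 2.3.3 and matplotlib 3.10.9, and were tested on simulated data.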

Additional observations from a re-analysis of the deposited data

How the results depend on the processing

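Between whole sections, the number of the 10 genes at least 1.5-fold higher in the KO-labelled section was 0 with scaling to total counts (24% of all genes), 2 with median-of-ratios scaling (29%), 3 with TMM (33.7%) and 1 with barcodes of 1000 or more counts only (27.9%). The number at least 1.5-fold lower was 3 with total counts (33.6%) and 0 with TMM (21.9%). Median-of-ratios scaling and TMM moved the median of all genes by 0.18 and 0.33 on the log2 scale. Totals without the marker genes and alpha-defensins named above lowered every whole-section ratio by 0.19 instead. These genes held 3.9% of the KO-labelled and 15.8% of the WT-labelled counts. Smarcc1 and Smarce1 were then at -1.04 and -1.07. Smarca4, Smarcc1 and Smarce1 had negative ratios and Smarca2, Smarcc2, Arid1a and Arid1b positive ones under all 14 alternatives run.

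Within marker-rich squares, 1 marker threshold for both sections left 9 compartments with 90 combinations, of which 14 were at least 1.5-fold higher (29.2% of all genes) and 14 lower (24.9%), against 28 and 35 of 170 with a threshold per section. It turned the Smarca2 ratio in smooth muscle-rich squares to -0.0016, against 0.95, on at most the 50 WT-labelled counts behind the latter. Totals without the marker genes and alpha-defensins, which for the squares was added after seeing the data, gave 14 combinations higher (24.6%) and 47 lower (28.6%). The Smarcc1 share was lower in the KO-labelled section in every compartment under each setting of the squares. The Smarca4 share was lower in every compartment too, except with the top 5% of squares (15 lower, 2 higher) and with 1 threshold for both sections (8 lower, 1 higher). No paired analysis was possible because each genotype has 1 section. Depth limits the tiles, where Smarca2 had a median of 7 counts in the WT-labelled section.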

Other observations

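Of 30 remodeller genes outside the SWI/SNF family, 2 passed 1.5-fold upwards and 9 downwards in the section labelled Dpf2 KO, and the median log2 ratio was -0.36. Among all genes with 50 or more counts, 23.4% passed upwards and 35.9% downwards. The remodellers furthest apart on 200 or more counts were Ruvbl2, an AAA+ ATPase of the INO80 and SRCAP complexes, at -1.71, Mta1, a NuRD subunit, at -1.39, and the CHD family ATPases Chd3 and Chd7 at 1.35 and -1.34. Among 15 Polycomb genes, 3 passed upwards and 4 downwards (median -0.36), beside the same 23.4% and 35.9% of all genes. Cbx8 and Cbx2, which encode chromodomain subunits, were at 2.65 and 1.41, Phc1 at -1.11, and Ezh2, the histone H3 methyltransferase, at -1.08.

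Over the 34 compartment values, which pool both sections and so hold the differences between them, the genes most like Smarcc2 were Hint2 and Zfp973 (Pearson r of 0.96 each). Arid1a was most like Crebzf and Celf1 (0.93 each), Arid1b most like Krit1 and Pnisr (0.88 and 0.86), Arid2 most like B9d2 and Ube2h (0.96 and 0.95), Pbrm1 most like Rnf7 and Snrnp27 (0.89 and 0.88), and Brd9 most like Rasa4 and Hspa4 (0.88 and 0.87). The highest tile for Pbrm1 in the KO-labelled section, at 73.4 CPM on 37 counts against a median of 23.2 CPM, ranked 2 of 92 for smooth muscle and stem cell markers, 4 for stroma, and 7 for Paneth cell and proliferation markers.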
